A study of Apeltes quadracus with 85 samples.

Results

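The blank pterygiophore (Pter) is a bone of the dorsal midline of sticklebacks that bears no spine. RNA-seq of the Pter of Apeltes quadracus fry was compared between fish with and without the H haplotype of the HOXDB gene cluster. The libraries were chosen by their tissue label and by the genotype in their titles, which gave 11 of the 85 libraries of the series, 1 from each of 11 fish. The 7 H carriers, made up of 4 H/L and 3 H/LHR fish, stood against 4 L/LHR fish. H goes with a high and L with a low number of dorsal spines in the wild population. LHR is a haplotype that the study names low-high recombinant, and it reports that LHR resembled L more than H in HOXDB expression. Every fish therefore carried a pair of different haplotypes, an H carrier had 1 copy of H and 1 copy of L or LHR, and no fish was H/H.

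All fry came from laboratory clutches of Louisbourg parents, were reared at 16 °C in 10% seawater and were dissected at the finfold stage (stage 31) at a length of 11 to 13 mm. The sources used here do not say which blank pterygiophore was taken, which clutch a fish came from or what sex it was. A replicate number names 1 fish within a genotype, and the sources do not say whether fish of different genotypes with the same number share a clutch or a day. The fourth dorsal spine (DS4) was taken from all 7 H carriers and from 1 of the 4 L/LHR fish. The study states that this spine formed only in some of the progeny. The carriers thus also differed from most L/LHR fish in having a DS4 sample. In those fish this cannot be told apart from carrying H. Whether the Pter taken lay at the same position in fish with and without DS4 is not stated.

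Hox genes encode transcription factors with a homeodomain. They sit in clusters, are expressed in staggered domains along the body axis and give cells a position along it. HOXD9B and HOXD11B are neighbouring genes towards the posterior end of the HOXDB cluster, a hoxd-type cluster of teleosts on chromosome 6. In vertebrates, such posterior genes are known for patterning the trunk, the tail and the fins or limbs. The question put to the Pter was whether the HOXDB region, or any other part of the genome, was read at a different level when 1 of the copies was H.

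The genotypes rest on a pair of PCR markers that lie between HOXD11B and HOXD9B, AQ-HOXDB_6 and AQ-HOXDB_7. Their primers are shown because the groups compared here rest on them, and they are given from 5′ to 3′.
AQ-HOXDB_6F: cagctgctcttaatgtcgcc
AQ-HOXDB_6R: caaagagggagagcagacgg
AQ-HOXDB_7F: gctgtgacttgtttcaaatgcc
AQ-HOXDB_7R: taagtggctcgcgtttaccg

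The deposited files count reads of each allele at variant sites, so a level here is the sum of reads of both alleles per M (mega) allele-counted reads of the library (RPM). A read that covers several sites counts at each of them. The Pter libraries held 16.6 to 40.9 M such reads. H/L replicate 3 was the shallowest, and the next lowest, L/LHR replicate 1, held 27.1 M. The files name no genes, so the tissue could not be checked with marker genes. Over 10-kb bins of the genome, 9 of the 11 Pter libraries correlated best with another library of the same fish (r from 0.965 to 0.979), and H/L replicate 3 had the lowest best correlation (0.9501). In bulk tissue, fewer cells of a type and less RNA per cell cannot be told apart.

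The fish also differed in genotype away from chromosome 6. The first principal component of their genotypes outside chromosome 6 (26708 sites, 23.2% of the variance) set L/LHR replicate 1 and replicates 1 and 2 of H/LHR (0.46 to 0.51) apart from the other 8 fish (-0.26 to -0.06). Sites at which every fish of 1 group had an allele that no fish of the other group had were then counted, among 208804 sites with at least 20 reads in each fish. An allele was taken as present at a share of 10% or more and as absent at 2% or less. Of 37 sites with an allele in all 7 H carriers only, 34 lay on chromosome 6, from 14333502 to 16252606. Of 145 sites with an allele in all 4 L/LHR fish only, 122 lay on chromosome 14, from 203128 to 2956126. In these 11 fish, carrying H and lacking these alleles of the chromosome 14 segment of 2.75 Mb cannot be told apart. This count was added after the data had been seen.

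The HOXDB window runs from 3 kb before C16020516T, the HOXD11B variant that the study names, to 3 kb beyond A16028519G, the last HOXD9B variant it names. Such a token gives the reference base, the position on chromosome 6 of the authors' Apeltes assembly and the alternate base. The window holds 67 listed sites, of which 27 lie in the part around HOXD11B (to 16023516) and 40 in the part around HOXD9B (from 16024923). Summed over the window, the Pter of the H/L fish had 19.2, 22.9, 18.2 and 37.4 RPM in replicates 1 to 4. The H/LHR fish had 16.7, 16.2 and 17.1 RPM, and the L/LHR fish had 26.5, 24.8, 24.2 and 23.9 RPM. Of the 7 H carriers, 6 lay below all 4 L/LHR fish, and H/L replicate 4 lay above them, so the groups overlapped. The means were 21.1 ± 7.52 RPM in H carriers (SD, n = 7) and 24.8 ± 1.17 RPM in L/LHR fish (SD, n = 4). On the log2(RPM + 0.1) scale H carriers differed by -0.30, with a 95% interval from -0.72 to 0.20. An exact two-sided permutation test of the carrier label over the 330 arrangements gave p = 0.23 (0.58 after Benjamini-Hochberg adjustment over 18 tests of the HOXDB levels). The smallest p this design can give is 0.003.

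**Figure D1:**
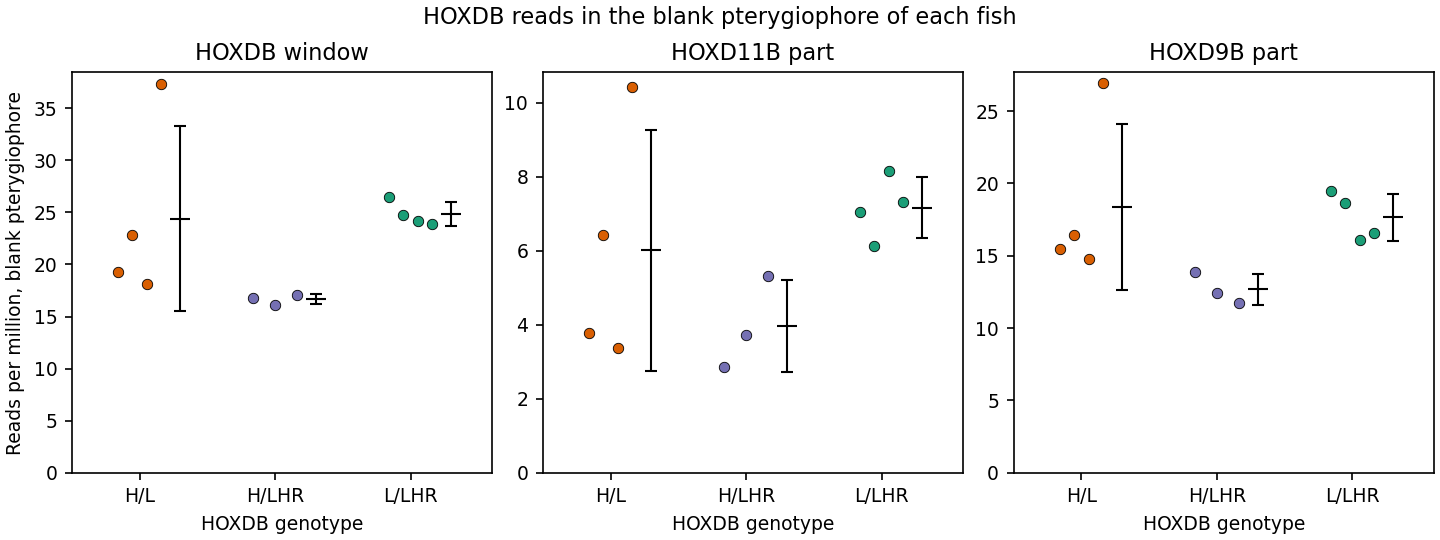
Reads over the HOXDB window and its HOXD11B and HOXD9B parts in the Pter, in RPM on the vertical axis, by genotype on the horizontal axis; each point is 1 fish and the bars are the mean ± SD of a genotype. In the window the 3 H/LHR fish lie between 16.2 and 17.1 RPM, the 4 L/LHR fish between 23.9 and 26.5 RPM, and the H/L fish spread from 18.2 to 37.4 RPM.

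The carriers are also given by genotype. The 3 H/LHR fish had a mean of 16.7 ± 0.471 RPM (SD, n = 3), below every L/LHR fish, and differed from them by -0.57 on the log2 scale (exact permutation p = 0.029, the smallest that 3 against 4 fish allow, adjusted p = 0.10). With the replicate number as a block, which leaves 8 arrangements, the exact permutation p was 0.125, the smallest these allow (adjusted p = 0.45). The 4 H/L fish had a mean of 24.4 ± 8.87 RPM (SD, n = 4) and differed from L/LHR by -0.09 (exact permutation p = 0.83). Every H/L fish lay above every H/LHR fish, but the difference between both kinds of carrier was not tested. The H/LHR fish also had the lowest mean in the anal fin and the dorsal fin, as given below. The H/L mean rested on replicate 4, and without that fish the difference of all carriers from L/LHR was -0.44 (exact permutation p = 0.0095, adjusted p = 0.069). That fish was singled out by its value, and the other carriers all lay below the L/LHR fish. The small p followed from this choice and is no separate test. Replicates 1 and 2 of H/LHR were also among the 3 fish set apart by the genotype component. Without these 3 fish the window differed by -0.14 (exact permutation p = 0.62).

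HOXD11B, the more posterior of both genes by its Hox group, had the larger difference. In its part of the window the H/L fish had 3.79, 6.44, 3.38 and 10.4 RPM, the H/LHR fish had 2.87, 3.72 and 5.33 RPM, and the L/LHR fish had 7.05, 6.14, 8.15 and 7.32 RPM. Of the 7 carriers, 5 lay below all L/LHR fish, H/L replicate 2 lay among them and H/L replicate 4 above them. The difference was -0.60 on the log2 scale (95% interval from -1.28 to 0.19, exact permutation p = 0.12, adjusted p = 0.57). HOXD9B had the higher level and the smaller difference. Its part of the window had 15.4, 16.4, 14.8 and 26.9 RPM in the H/L fish, 13.9, 12.4 and 11.8 RPM in the H/LHR fish, and 19.5, 18.6, 16.1 and 16.6 RPM in the L/LHR fish. H/L replicate 2 lay within the L/LHR range, H/L replicate 4 above it and the other 5 carriers below it. The difference was -0.19 (95% interval from -0.61 to 0.27, exact permutation p = 0.38, adjusted p = 0.58).

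The study names 1 variant in the 3′ untranslated region of HOXD11B and 2 in that of HOXD9B. At C16020516T in HOXD11B the H/L fish had 0.452, 0.808, 0.301 and 1.104 RPM, the H/LHR fish had 0.313, 0.228 and 0.659 RPM, and the L/LHR fish had 0.923, 0.786, 0.933 and 0.898 RPM. Carriers other than H/L replicates 2 and 4 lay below all L/LHR fish, and the difference was -0.74 (exact permutation p = 0.088, adjusted p = 0.57). These values came from 138 reads in all carriers and 119 reads in all L/LHR fish. At A16027923G in HOXD9B the means were 0.856 ± 0.377 RPM in carriers (SD, n = 7) and 1.04 ± 0.195 RPM in L/LHR fish (SD, n = 4), a difference of -0.33 (exact permutation p = 0.28). At A16028519G in HOXD9B they were 1.30 ± 0.435 and 1.49 ± 0.480 RPM, a difference of -0.18 (exact permutation p = 0.48). None of the 3 variants differed beyond the spread between fish.

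The sign was nevertheless shared by most of the sites of the window that had enough reads to be counted. Of its 67 sites, 30 had a mean of at least 5 reads per Pter library, and 27 of these had a lower mean log2 level in H carriers. Over all 202359 sites of the genome with as many reads, 49.8% were lower in carriers and the median difference was 0.00. All 10 such sites of HOXD11B were lower, with a median of -0.40, and 17 of the 20 of HOXD9B were lower, with a median of -0.10. The 3 sites that were higher, C16028835T (0.14), G16028878A (0.07) and T16028921C (0.14), lie next to each other at the HOXD9B end. Sites with fewer reads were not counted. Among them, a run from T16022901C to G16023090T in the HOXD11B part had 2 to 6 reads a site in all carriers and 0 in L/LHR fish. Neighbouring sites share reads and all sites share the same 11 fish. The counts of lower and higher sites are thus 1 observation on each gene rather than many, and they carry no test. At 7 sites of HOXD11B and 1 of HOXD9B, H was the alternate allele and the L/LHR fish had the reference allele alone. Alternate alleles had a mean share of 42.8% at heterozygous sites of the carriers' Pter libraries. Whether this lowered the level of carriers at these sites, and so in the HOXD11B part, was not tested. The sites of the whole genome were not matched for it.

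Levels per copy were then compared at sites where all 7 carriers were heterozygous and all 4 L/LHR fish were homozygous, so that reads of the H copy and of the other copy separate. There were 7 such sites in HOXD11B and 1 in HOXD9B, T16029269C. In HOXD11B the copy that was not H had 1.80 ± 1.05 RPM in carriers (SD, n = 7), and a copy in L/LHR fish had 2.20 ± 0.322 RPM (SD, n = 4). Carriers ranged from 0.603 RPM in H/L replicate 3 to 3.84 RPM in H/L replicate 4, around the L/LHR range of 1.93 to 2.65 RPM. The difference was -0.45 (95% interval from -1.38 to 0.48, exact permutation p = 0.33). The H copy of the same fish had 1.47 ± 0.812 RPM, with 358 reads against 453 of the other copy. H was the alternate allele at all 7 sites and at T16029269C. Alternate alleles had a mean share of 42.5% to 43.4% at heterozygous sites of the carriers' Pter libraries. This is a mean over sites of the whole genome, and whether it holds at the sites used here was not tested. Dividing each copy by the share of its allele kind gave 1.71 ± 0.932 RPM for the H copy and 1.58 ± 0.931 RPM for the other copy (SD, n = 7), so their order turned. Within fish, the H copy was then the higher in 5 of the 7 carriers, 4 of 4 H/L and 1 of 3 H/LHR. This was not tested.

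In HOXD9B the copy that was not H had 0.559 ± 0.129 RPM in carriers and 0.691 ± 0.0835 RPM per copy in L/LHR fish. Carriers ranged from 0.362 to 0.736 RPM and L/LHR fish from 0.590 to 0.794 RPM, so the groups overlapped. The difference was -0.28 (95% interval from -0.65 to 0.08, exact permutation p = 0.12, adjusted p = 0.24 over both genes). The H copy had 0.401 ± 0.177 RPM, from 100 reads against 135 of the other copy, and after the same division 0.468 ± 0.204 RPM against 0.489 ± 0.115 RPM (SD, n = 7). The share of reference alleles at heterozygous sites was 56.6% to 58.1% in these libraries. Dividing by that share moved the HOXD9B difference to -0.44 (exact permutation p = 0.024, adjusted p = 0.048). Only carriers were divided, as the L/LHR fish were homozygous at this site, so a shift to a lower value was built in. Whether this single site of HOXD9B passes thus depended on that division of carriers, and HOXD11B did not pass with or without it. Other HOXD9B sites gave differences of both signs, which were not tested. At 3 sites with an allele of L alone, the L copy had 1.80 ± 0.593 RPM in H/L and 1.53 ± 0.492 RPM in L/LHR fish (SD, n = 4 each). At 5 sites with an allele of LHR alone, the LHR copy had 1.49 ± 0.284 RPM in H/LHR (SD, n = 3) and 1.72 ± 0.327 RPM in L/LHR fish (SD, n = 4).

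**Figure D2:**
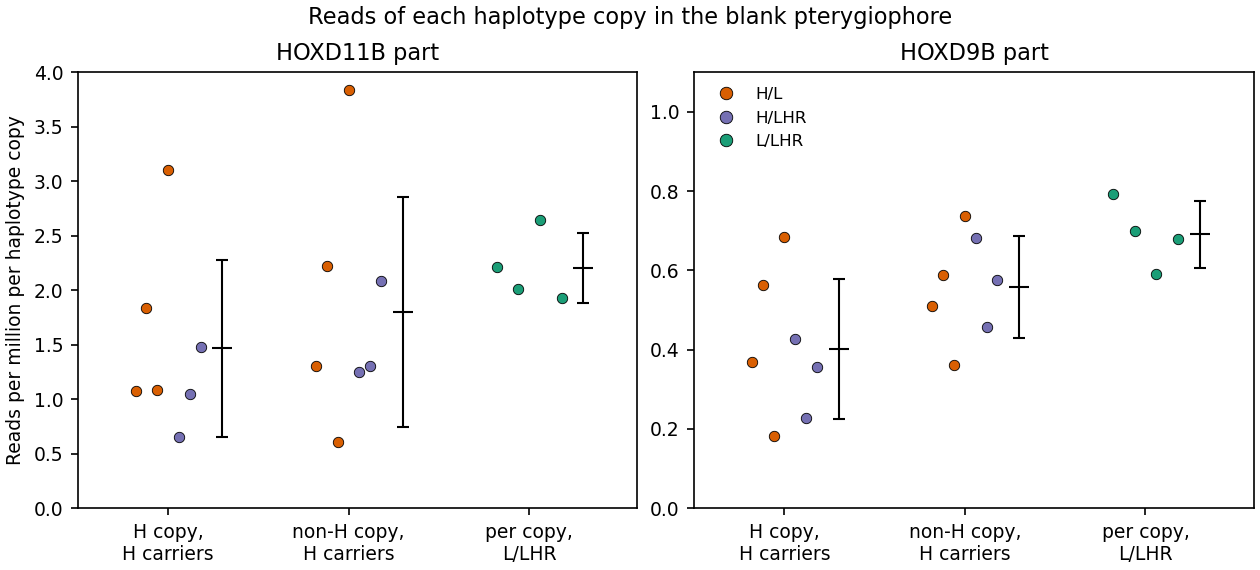
Level per gene copy in the Pter, in RPM per copy on the vertical axis, for the H copy of the 7 carriers, their other copy, and the mean copy of the 4 L/LHR fish, in HOXD11B (7 sites) and HOXD9B (1 site); points are fish and bars are the mean ± SD. The levels are shown without correction for the allele kind; the H copy has means of 1.47 and 0.401 RPM, its order with the other copy turns in HOXD11B when corrected, and the groups overlap.

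The share of the H copy in the Pter can be set beside these levels. Since H was the alternate allele at these sites, the share to read it against is the 42.5% to 43.4% of alternate alleles in the same libraries, not equal shares. In the HOXD11B part H made up 45.9% of the allele-resolved reads of the H/L fish (249 reads against 293 of L, from 44.7% to 64.3% in single fish). In the H/LHR fish it made up 40.5% (109 reads against 160 of LHR, from 34.3% to 44.4%). The highest share, 64.3%, came from H/L replicate 3, the shallowest library, with 18 reads of H and 10 of L. At T16029269C in HOXD9B the H share was 46.1% in H/L and 37.2% in H/LHR fish. In HOXD11B all 4 H/L fish and 1 of the 3 H/LHR fish had a share of H above the alternate share of their library, and at T16029269C 2 of 4 and 0 of 3 fish did. Other sites of HOXD9B also separate the copies. At the 3 sites with an allele of L alone, L was the reference allele and made up 57.4% in H/L fish (248 reads against 184 of H). At the 5 sites with an allele of LHR alone, LHR was the alternate allele and made up 52.2% in H/LHR fish (152 reads against 139 of H). At the sites with an allele of H alone, the H/LHR fish thus had the lower share of H in both genes. They also had the lower level of the window, without a test of either difference.

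The anal fin (AF), a median fin on the ventral side, served as the control tissue, and the change from AF to Pter within a fish takes out what a fish has in both tissues. The window rose from AF to Pter in all 11 fish. The log2 change was 0.07, 0.59, 0.23 and 1.26 in the H/L fish, 0.52, 0.49 and 0.88 in the H/LHR fish, and 0.60, 0.58, 0.79 and 1.23 in the L/LHR fish. The carriers spanned the whole L/LHR range. Their mean change was 0.58 ± 0.40 (SD, n = 7) against 0.80 ± 0.30 (SD, n = 4), a difference of -0.22 (95% interval from -0.73 to 0.31, exact permutation p = 0.37, adjusted p = 0.58). HOXD11B differed by -0.39 (exact permutation p = 0.36) and HOXD9B by -0.15 (exact permutation p = 0.45). In HOXD11B, H/L replicates 1 and 3 alone had a lower level in Pter than in AF, by -0.24 and -0.41 on the log2 scale. In AF itself the window had 13.8 ± 3.13 RPM in carriers and 14.5 ± 3.25 RPM in L/LHR fish. The kinds of carrier differed there, with 16.1 ± 1.47 RPM in H/L (SD, n = 4) and 10.8 ± 1.33 RPM in H/LHR fish (SD, n = 3). In the dorsal fin the means were 14.3 RPM in H/L, 10.6 RPM in H/LHR and 16.1 RPM in L/LHR fish. The H/LHR fish thus had the lowest mean in both fins as well as in Pter, which was not tested.

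The third dorsal spine (DS3) lies in front of the Pter. Its window had 11.3 ± 3.98 RPM in carriers (SD, n = 7) and 21.2 ± 4.14 RPM in L/LHR fish (SD, n = 4), a log2 difference of -0.98. The DS3 library of L/LHR replicate 2 held only 5.0 M reads, with 107 in the window. The Pter difference of -0.30 was closer to 0. From DS3 to Pter the window rose by 1.76, 1.93, 0.15 and 1.52 in the H/L fish and by 0.35, 0.40 and 0.43 in the H/LHR fish. In the L/LHR fish it changed by 0.76, 0.21, 0.14 and -0.11. H/L replicates 1, 2 and 4 stood above all others, while the other 4 carriers lay within the range of the L/LHR fish. The mean step was 0.68 larger in carriers (95% interval from -0.19 to 1.67, exact permutation p = 0.13, adjusted p = 0.57), so the Pter was not shown to differ from DS3 in its response to H. HOXD9B had the larger difference in step, 0.81 (95% interval from -0.01 to 1.71, exact permutation p = 0.055, adjusted p = 0.57), and HOXD11B had 0.18 (exact permutation p = 0.76).

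Along the body the window was near 0 in the first dorsal spine (DS1), with 0.134 RPM in carriers and 0.0466 RPM in L/LHR fish, and highest in the last dorsal spine (DSL), with 45.6 and 45.3 RPM. The Pter, with 21.1 and 24.8 RPM, lay close to DS4 (23.4 RPM in carriers and 23.1 RPM in the single L/LHR fish that had one). The log2 difference of carriers from L/LHR was -1.35 in the second dorsal spine (DS2), -0.98 in DS3, -0.30 in Pter, -0.02 in DSL, -0.35 in the dorsal fin (DF) and -0.07 in AF. Apart from DS1, where few reads were counted, and DS4, with 1 L/LHR fish, carriers had the lower mean log2 level in every tissue. In DSL this came to only -0.02, and the HOXD9B part was higher in carriers there, by 0.11. DS2, with the largest difference, also had few reads, 45 over the window in the 4 H/L fish together. The study did not assess allele ratios in DS1 and DS2 because of low counts. The order of the tissues is a description, since the same fish gave all of them. Depth also differed, and the shallowest library held 2.2 M reads in DS1, 2.7 M in DS4, 4.8 M in DSL and 5.0 M in DS3. Whether the Pter taken lay at a different position in the groups, where the level of the window may differ, was not tested.

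**Figure D3:**
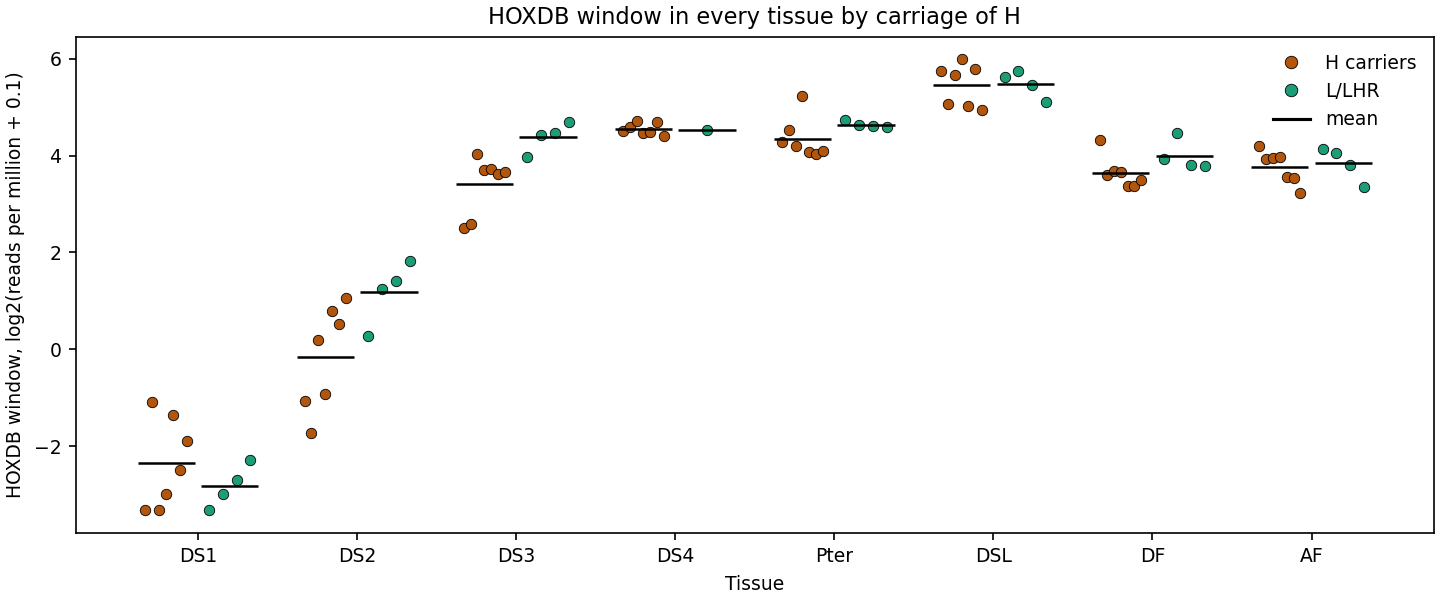
Level of the HOXDB window in each tissue, as log2(RPM + 0.1) on the vertical axis, with the tissues on the horizontal axis; points are fish, and lines are the means of the H carriers and of the L/LHR fish (1 L/LHR fish in DS4). The means lie 0.98 apart in DS3 and 0.30 apart in Pter, the carriers being lower in both.

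Beyond the HOXDB cluster, reads were summed in fixed 10-kb bins, and 20547 bins passed the filter in Pter. In edgeR's quasi-likelihood test 0 bins (0%) passed a false discovery rate (FDR) of 0.05, the lowest adjusted p being 0.72. At an unadjusted p under 0.05 there were 940 bins (4.57%), of which 498 (2.42%) were higher and 442 (2.15%) lower in H carriers. The levels of the groups did not overlap in 55 bins (0.268%). DESeq2 called 7 of 20545 bins (0.0341%), 3 higher and 4 lower, with 1048 at an unadjusted p under 0.05. The median standard error of a bin's log2 difference was 0.25. The counts of calls by edgeR in other tissues, with the same fish, were 1 in DS1 (0.00474%), 1 in DSL (0.00474%), 1 in DF (0.00456%), and 0 in DS2, DS3 and AF (0% each). At an unadjusted p under 0.05 their shares were 2.03% in DS1, 5.2% in DS2, 4.53% in DS3, 5.11% in DSL, 4.26% in DF and 3.37% in AF.

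In Pter the tested bins at the HOXDB cluster were neither called nor among those with an unadjusted p under 0.05. The bin that holds most of the window, 16020001 to 16030000, differed by -0.24 (SE 0.19, edgeR adjusted p = 1.00), and the bin before it differed by -0.09 (edgeR adjusted p = 1.00). The bin from 16030001 held 6 sites and did not pass the filter. In DS3 the bin from 16020001 differed by -1.17 (edgeR unadjusted p = 0.0034, adjusted p = 0.9999), so it did not pass FDR 0.05 there either. Within 1 Mb of the window 109 bins were tested in Pter, and 5 (4.59%) had an unadjusted p under 0.05, all 5 higher in carriers. That share is near the 4.57% of all bins. In the chromosome 6 segment with alleles private to carriers 4 of 82 bins (4.88%) had such a p, and in the chromosome 14 segment with alleles private to L/LHR fish 10 of 186 (5.38%), with a median difference of -0.03.

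The 3 bins with the smallest p in each direction are described next, and none of them passes FDR 0.05 in edgeR. The DESeq2 values beside them come from the same counts and add no support to bins chosen in this way. The sources used here give no gene for any of them. The bin with the smallest p among those higher in carriers lies on chromosome 13 from 14640001 to 14650000. It had 5.83, 7.95, 4.099 and 6.42 RPM in the H/L fish, 5.29, 5.25 and 7.66 RPM in the H/LHR fish, and 3.43, 2.62, 3.21 and 3.94 RPM in the L/LHR fish. All carriers lay above all L/LHR fish, the closest being H/L replicate 3. The log2 difference was 0.87 (SE 0.16, edgeR adjusted p = 0.72, DESeq2 adjusted p = 0.0020). It was also positive in the other 6 tissues tested, from 0.26 in DF to 0.59 in DS1.

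On chromosome 19 the bin from 640001 to 650000 had 6.45, 8.54, 5.18 and 8.28 RPM in the H/L fish, 6.31, 5.09 and 8.76 RPM in the H/LHR fish, and 3.14, 4.08, 4.78 and 4.76 RPM in the L/LHR fish. The lowest carrier, H/LHR replicate 2, lay just above the highest L/LHR fish. The difference was 0.73 (SE 0.14, edgeR adjusted p = 0.72), and in AF it was 0.50. On chromosome 17 the bin from 9000001 to 9010000 ranged from 3.07 to 7.42 RPM in carriers, with a median of 4.47 RPM, and had 2.36, 2.27, 3.02 and 1.99 RPM in the L/LHR fish. H/L replicate 3 was the lowest carrier and L/LHR replicate 3 lay just below it. The difference was 1.01 (SE 0.20, edgeR adjusted p = 0.82), against 0.24 to 0.51 in the other 6 tissues.

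**Figure D4:**
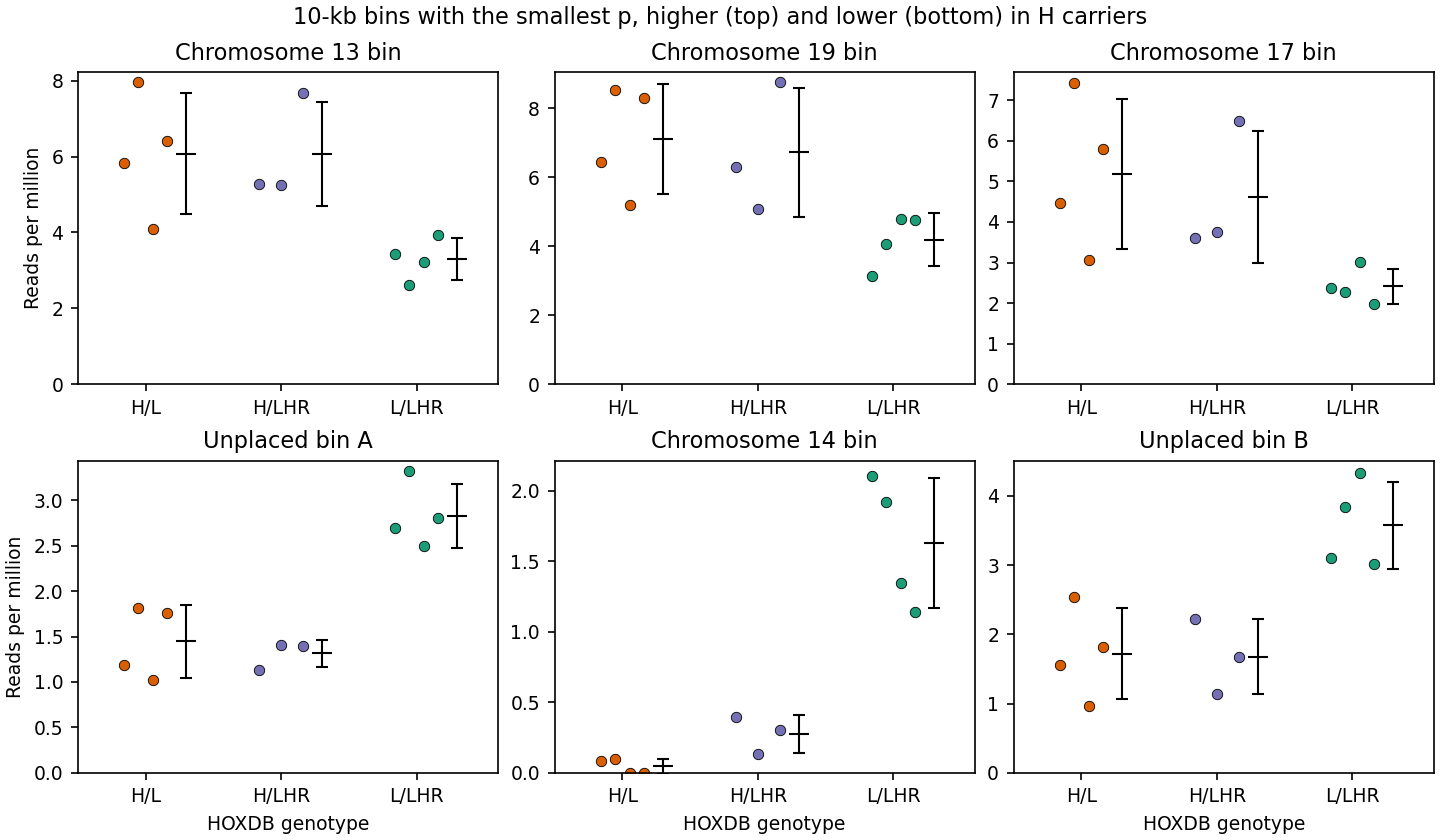
Levels of the 6 bins with the smallest p in Pter, 3 higher and 3 lower in H carriers, in RPM on a vertical axis of their own for each bin; each point is 1 fish, by genotype, and the bars are the mean ± SD. In each bin the 7 carriers and the 4 L/LHR fish do not overlap, as in 0.268% of all bins tested. The bins were chosen by their p, which favours such a gap, so the gap adds no support.

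Among the lower bins, the one with the smallest p lies in the unplaced sequence from 11380001 to 11390000. It ranged from 1.03 to 1.81 RPM in carriers, with a median of 1.40 RPM, and had 2.70, 3.32, 2.50 and 2.80 RPM in the L/LHR fish. The difference was -1.04 (SE 0.19, edgeR adjusted p = 0.72), and it was negative in all 6 other tissues, from -0.56 in DS2 to -0.78 in DSL. A further bin of the unplaced sequence, from 8740001 to 8750000, ranged from 0.965 to 2.55 RPM in carriers and from 3.02 to 4.34 RPM in the L/LHR fish. Its difference of -1.07 (SE 0.22, edgeR adjusted p = 1.00) had the opposite sign in DS1, DS2 and DS3, at 0.18, 0.09 and 0.21. Whether the tissues differ in this bin was tested against AF alone, with a difference of -0.85 (edgeR adjusted p = 0.82).

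The largest of the 6 differences was on chromosome 14, in the bin from 1020001 to 1030000, inside the segment with alleles private to L/LHR fish. Its Pter level was 0.0848, 0.0979, 0 and 0 RPM in the H/L fish, 0.398, 0.131 and 0.302 RPM in the H/LHR fish, and 2.11, 1.92, 1.34 and 1.14 RPM in the L/LHR fish. Every carrier lay well under every L/LHR fish, and the means were 0.145 and 1.63 RPM. The log2 difference was -3.41 (SE 0.65, edgeR adjusted p = 0.72, DESeq2 adjusted p = 0.0020). In Pter the carriers had 0 to 14 reads each and the L/LHR fish 42 to 66. The bin thus passed the filter through the L/LHR fish, and its p-values are description rather than support. The bin was lower in carriers in every tissue, from -3.33 in AF to -4.58 in DS1. In DS1, where carriers had a mean of only 0.102 RPM, it was the only bin called by edgeR (adjusted p = 0.019). In the other tissues its adjusted p lay between 0.11 in DF and 0.88 in AF. Relative to AF the Pter difference was -0.19 (edgeR adjusted p = 0.98), and no difference of Pter from AF was detected.

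Within this bin the difference came from a short stretch. Over all tissues, 6 sites from 1022171 to 1022378 had 59 reads in the 7 carriers and 2076 reads in the 4 L/LHR fish, while the whole bin of 16 sites had 373 and 2373 reads. At 4 of these 6 sites, 96.1% to 98.3% of the reads of the L/LHR fish carried the alternate allele. At the 3 sites from 1020699 to 1020809 both groups had reads, in total 61 to 116 a site in the 7 carriers and 69 to 72 a site in the 4 L/LHR fish. Single carriers had 0 to 35 reads a site and single L/LHR fish 11 to 24. No source used here says what is transcribed there.

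**Figure D5:**
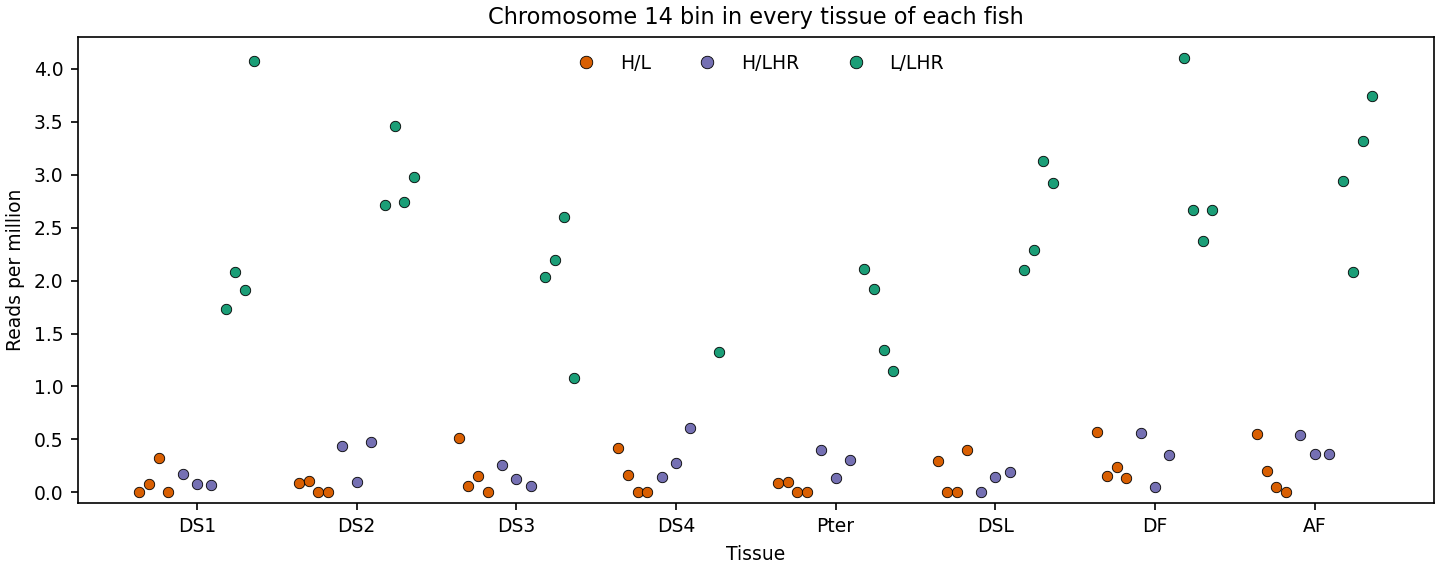
Level of the chromosome 14 bin in each tissue, in RPM on the vertical axis, with the tissues on the horizontal axis; each point is 1 fish, coloured by genotype. The L/LHR fish lie at 1.14 to 2.11 RPM in Pter and the 7 carriers at 0 to 0.398 RPM.

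The same scan was run on the change from AF to Pter within a fish, with a term for each fish. Of 21976 bins, 0 (0%) passed FDR 0.05 in edgeR, the lowest adjusted p being 0.50. At an unadjusted p under 0.05 there were 1292 bins (5.88%), of which 470 (2.14%) had the higher and 822 (3.74%) the lower change in carriers. DESeq2 called 3 bins (0.0137%). The HOXDB bin from 16020001 differed by -0.21 (edgeR adjusted p = 0.92) and the bin before it by -0.39 (edgeR adjusted p = 0.89). Changes of the groups did not overlap in 109 bins (0.496%).

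On chromosome 16 the bin from 7930001 to 7940000 fell from AF to Pter by a log2 change of -1.26, -2.24, -1.79 and -1.61 in the L/LHR fish. It changed by -0.07, -0.59, -0.47 and 0.12 in the H/L fish and by -0.48, -1.002 and -0.71 in the H/LHR fish. The step was thus smaller in each carrier, with a difference of 1.27 (SE 0.22, edgeR adjusted p = 0.50, DESeq2 adjusted p = 0.0035). In Pter alone this bin differed by 0.51 (edgeR adjusted p = 1.00) and in AF alone, with the opposite sign, by -0.67.

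On chromosome 6, far from the HOXDB cluster, the bin from 3750001 to 3760000 rose from AF to Pter by 1.27, 0.89, 1.34 and 1.84 in the L/LHR fish. In carriers the change ranged from -0.83 in H/LHR replicate 2 to 0.40 in H/L replicate 4. The difference was -1.75 (SE 0.31, edgeR adjusted p = 0.50, DESeq2 adjusted p = 0.026). The bin holds 8 sites, and its AF level was 1.15 ± 0.391 RPM in carriers and 0.569 ± 0.168 RPM in L/LHR fish. On chromosome 15 the bin from 9160001 to 9170000 fell by 0.34 to 0.96 in all carriers and changed by -0.27, 0.21, 0.16 and 0.24 in the L/LHR fish, a difference of -0.77 (SE 0.15, edgeR adjusted p = 0.71, DESeq2 adjusted p = 0.026).

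The other 3 bins chosen by the smallest p were not called by either tool. On chromosome 11 the bin from 9160001 to 9170000, with 9 sites, differed by -1.16 (SE 0.23, edgeR adjusted p = 0.71). Its change was positive in all 4 L/LHR fish, from 0.52 to 1.27. In carriers it ranged from -0.71 in H/LHR replicate 1 to 0.31 in H/L replicate 4. In the unplaced sequence the bin from 16510001 to 16520000 differed by 1.496 (SE 0.33, edgeR adjusted p = 0.71), rising from AF to Pter in all 4 H/L fish and falling in all 4 L/LHR fish. The H/LHR fish lay between them, at 0.28, -0.24 and -0.29. The bin from 14810001 to 14820000 fell in all 11 fish, by more in L/LHR fish, and differed by 0.65 (SE 0.16, edgeR adjusted p = 0.71). In Pter alone it differed by -0.09 (SE 0.32) and in AF alone by -0.77.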

How the data were processed

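The authors trimmed read pairs with cutadapt 2.4 through Trim Galore, mapped them with STAR to their own Apeltes assembly (linked reads of 1 Louisbourg fish, ordered by RaGOO along Gasterosteus), and counted alleles with GATK 4.1.4.1 (per the study's methods and the submitters' processing notes). The deposited files give raw counts of reference and alternate reads at variant sites, without gene names, so a count is not a number of fragments. Members, lists and most tests were chosen with earlier results of these data known. Counts of both alleles were summed in 10-kb bins and tested with edgeR 4.0.16 (quasi-likelihood F-test, TMM, filterByExpr, Benjamini-Hochberg, FDR 0.05) in R 4.3.3. The change from AF had a term for each fish, since both tissues come from the same fish. HOXDB levels were log2(RPM + 0.1), tested by exact permutation over fish with Python 3.11.15 (numpy 2.4.6, scipy 1.17.1, pandas 2.3.3). Standard errors of bins are those implied by the F statistic. The bins named are those over the window and, as none passed, the 3 with the smallest p per direction and test. Alternatives were DESeq2 1.42.0, other normalizations, filters, bins, sites, genotypes, controls, pseudocounts and denominators, a replicate block, and each fish left out. Precision is limited by 4 L/LHR fish, and p-values measure the spread between fish.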

Additional observations from a re-analysis of the deposited data

Results flagged for a closer look

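In 60 groups of 4 to 7 values a gap test (Dixon, 95%) marked 7 values as far from the rest of their group, where chance gives about 3. Of these, 6 belong to H/L replicate 4, whose Pter library had 37.4 RPM over the HOXDB window (the nearest carrier had 22.9 RPM), 26.9 RPM in the HOXD9B part (16.4 RPM) and 35.4 RPM in the bin from 16020001 (21.6 RPM). The same fish had 1.63 RPM at A16027923G (0.881 RPM) and 2.26 RPM at A16028519G (1.37 RPM), and a log2 change from AF to Pter of 1.22 at A16027923G (0.30). These values share most of their reads and count as 1 observation on 1 library. The other value is the depth of the Pter library of H/L replicate 3, 16.6 M reads against 30.6 M in the next carrier.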

How the results depend on the processing

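Of 918 alternative values of 40 results, 861 kept their direction and their side of the threshold, 29 changed sign, 11 newly passed a threshold, and 17 counts moved by more than 1.5 times. No HOXDB level that changed sign was called in any setting. With DF in place of AF the change of the window differed by 0.053, that of the HOXD9B part by 0.10 and that of the bin from 16020001 by 0.16. With H/L fish alone the HOXD9B part in Pter differed by 0.016 and the bin from 16010001 by 0.00, which with 1 site per bin differed by 0.18. With H/LHR fish alone, with or without the replicate block, A16028519G differed by 0.16 relative to AF, and relative to DS3 the HOXD11B part differed by -0.61, C16020516T by -0.50 and A16027923G by -0.30. Without the 3 fish set apart by genotype A16028519G differed by 0.091 in Pter and by 0.059 relative to AF.

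Leaving out each fish in turn gave -0.33 to 0.001 for A16028519G in Pter, -0.15 to 0.069 for it relative to AF, and -0.28 to 0.01 for the bin from 16010001. Relative to DS3 it gave -0.075 to 0.43 for the HOXD11B part, -0.13 to 0.33 for C16020516T and -0.058 to 0.25 for A16027923G. For the window it gave -0.44 to -0.24 in Pter. The cause of these shifts was not tested.

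Bins called in Pter numbered 7 of 20545 with DESeq2, 1 of 20117 with H/L alone, 1 of 20771 without the 3 fish and 0 in every leave-one-out fit. Relative to AF they numbered 3 of 21976 with DESeq2 and 11 of 22220 with DF as control (2 higher and 9 lower). With each fish left out they numbered 0 to 1, the single call coming without H/LHR replicate 3 (1 of 21862). DESeq2 called all 6 bins named in Pter, with log2 differences of 0.87, 0.73, 1.01, -1.04, -3.46 and -1.07, against adjusted p of 0.72 to 1.00 in edgeR. It called 3 of the 6 named relative to AF (1.27, -1.77 and -0.775), and with DF as control edgeR called the unplaced bin from 16510001 (1.55). The named bins were chosen by the smallest edgeR p in the same fish, so these calls add no support. Bins at an unadjusted p under 0.05 in Pter numbered 940 (4.57% of those tested), 622 in 20-kb bins (4.71%), but 615 without TMM factors (2.99%) and 567 to 1422 with each fish left out (567 without L/LHR replicate 4, 1422 without L/LHR replicate 2, 614 without L/LHR replicate 3). Relative to AF they numbered 1292 (5.88%), 1954 in 5-kb bins (5.80%), 827 in 20-kb bins (5.96%), but 706 with H/LHR alone (3.25%), 2145 with DF (9.65%) and 823 to 1900 with each fish left out. The copy that was not H in HOXD9B differed by -0.44 with the correction for reference share (exact permutation, adjusted p = 0.048). This correction was made in carriers alone and could only lower them.

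Deviations of same-numbered fish correlated at -0.04 to 0.06 between H/L and L/LHR and at 0.15 to 0.34 between H/LHR and L/LHR, and 5 of the 11 fish correlated best with a fish of their own number, so the numbers were not taken as pairs of all carriers with L/LHR. With the number as a replicate block the window differed by -0.30 in Pter (exact permutation p = 0.24), 0 bins were called and 827 (4.025%) had an unadjusted p under 0.05. With H/LHR alone and the replicate block, added after seeing the data since each of its 3 pairs correlated above 0.1, the window differed by -0.57 (exact permutation p = 0.125, against 0.029 without the block), 0 bins were called and 1093 (5.36%) had an unadjusted p under 0.05. Relative to AF the fit without the fish terms, that is with no replicate block, called 0 bins and had 569 (2.59%) at an unadjusted p under 0.05.

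Depth limits the single variants, which rest on 119 to 312 reads a group, and bins with few sites. Reads at several sites of a bin repeat each other.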

Other observations

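A bin of the unplaced sequence from 28130001 to 28140000, chosen after its values were seen, split the carriers. In Pter it had 1, 0, 0 and 1 reads in the H/L fish, 81, 125 and 0 reads in the H/LHR fish, and 68, 95, 145 and 109 reads in the L/LHR fish. The 2 H/LHR fish with reads were those set apart by the genotype component, and the same split was seen over all tissues, where the 5 carriers without it had 8 to 24 reads and the others 416 to 1275. Over all carriers it differed by -1.55 (edgeR adjusted p = 1.00), and with H/L fish alone by -7.40 (edgeR adjusted p = 4.3e-04). In the fit with H/L fish alone the bin passed the filter through the L/LHR fish, so that p adds no support.

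The bin that DESeq2 called in Pter beside the 6 named ones lies in the unplaced sequence from 19080001 to 19090000. It had 24, 18, 37 and 37 reads in the L/LHR fish and 0 to 4 reads in 6 of the 7 carriers, while H/L replicate 2 had 35 reads, in the range of the L/LHR fish. DESeq2 gave a log2 difference of -3.07 (adjusted p = 0.0093) and edgeR -2.31 (adjusted p = 1.00). This bin passed the filter mainly through the L/LHR fish, so the DESeq2 call adds no support.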
